A study of Mus musculus with 2 samples.

Results

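The genes described here are the enzymes of the urea cycle and of glutamine and glutamate nitrogen handling, measured in mouse liver. They were chosen by name, as Cps1, Otc, Ass1, Asl, Arg1, Nags, Glul, Gls2 and Glud1, a rule that uses no measured value. The choice was made, however, with earlier results of these data known. Of these 9 genes, 5 had a row among the 8551 genes of the expression table (Cps1, Otc, Asl, Nags and Gls2), and Ass1, Arg1, Glul and Glud1 were not analysed here. The livers came from male mice aged 9 weeks on a C57BL/6 background, either wild type (normal) or db/db, the type 2 diabetic model that lacks the signalling form of the leptin receptor in all tissues and becomes obese. They were taken about 3 h into the light cycle. All mice had free access to chow and water and came from 2 suppliers, which the sources used here do not tie to the groups, and whole liver was used, so that hepatocytes and all other liver cells contributed RNA. Each group has 1 library, and none of the differences below has a replicate check. The sources used here do not state whether a library held RNA of 1 mouse or of a pool.

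Ammonia set free from amino acids is toxic, and the liver disposes of it along 2 routes. Hepatocytes around the portal vein make urea. In their mitochondria glutaminase (Gls2) releases ammonia from glutamine, N-acetylglutamate synthase (Nags) makes the activator of carbamoyl phosphate synthetase (Cps1), Cps1 joins ammonia to bicarbonate, and ornithine transcarbamylase (Otc) passes the product to ornithine. The later steps are cytosolic and include argininosuccinate lyase (Asl), which releases arginine and fumarate. Hepatocytes around the central vein take up the remaining ammonia and store it as glutamine. Protein intake, fasting, glucagon and glucocorticoids are known to raise urea cycle transcripts.

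The measurement was digital gene expression, in which cDNA, here made with random hexamers from poly(A) RNA, is cut with DpnII and a short tag next to the cut site GATC is sequenced and counted. The tags below are those predicted at the GATC site nearest the 3′ end of the RefSeq-matched GENCODE M21 transcript of each member, with a tag length of 20 bases assumed. A gene can be counted only through tags at its GATC sites, of which these transcripts hold 6 to 19. The tags shown are predictions and need not be those that were counted. The capitals mark the DpnII site:
Cps1: GATCcttgcttcaggtttta
Gls2: GATCtgtccatcttagccag
Asl: GATCccgcccacccaaagct
Nags: GATCttcttctggttcggcc
Otc: GATCaaatcatcaaatgatt

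In the genome build GRCm38 the Cps1 tag lies at chr1:67230903-67230922 on the plus strand, in exon 38 of 38. The Gls2 tag lies at chr10:128209847-128209866 on the plus strand, in exon 18 of 18. The Asl tag lies at chr5:130011537-130011556 on the minus strand, in exon 16 of 16. The Otc tag lies at chrX:10320805-10320824 on the plus strand, in exon 10 of 10. These 4 tags are in 3′ untranslated sequence. The Nags tag, at chr11:102148960-102148979 on the plus strand in exon 7 of 7, is in coding sequence and 498 bases upstream of the transcript's end, against 33 bases for Asl and 337 for Cps1. Each of the 5 tags was found at a GATC site of 1 gene only among all GENCODE M21 transcripts. Which of a gene's tags the authors counted is not stated in the sources used here.

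The deposited values, called TPM, are RPM values, in which a gene's tags are divided by the clean tags of the library and not by gene length. They rise in steps of 0.0973 TPM in the normal and 0.0740 TPM in the diabetic library, 1 step being 1 read, which corresponds to about 10278531 and 13508232 clean tags. The listed genes took up 37.1% of these in the normal and 44.4% in the diabetic library, and the median log2 ratio (diabetic over normal) of all genes was 0.25. Scaling the libraries to each other in 4 other ways lowered each log2 ratio by 0.25 (trimmed mean of M values, TMM) to 0.31 (median ratio). A gene was called differentially expressed at a fold change of at least 1.5 and a false discovery rate (FDR) under 0.001. The FDR comes from an exact test of each gene's reads (binomial, two-sided), adjusted over all genes, and it compares 2 libraries rather than 2 conditions. Intervals are 95% intervals that cover counting error only. Since the tags of different genes differ in how well they are cut and matched, levels were compared between libraries and not between genes.

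Of the 5 urea cycle and ammonia genes, Cps1, Gls2 and Asl were called higher in the diabetic library and none was called lower. Over all genes, 22.9% were called higher and 8.19% were called lower. The log2 ratios of the members ranged from 0.25 to 1.28, with a median of 0.79 beside the 0.25 of all genes. Under TMM scaling only Cps1 and Gls2 were called, with 14.9% of all genes called higher and 13.4% lower, and the median of the members was 0.54 beside 0.00067. The order of the members by log2 ratio was Cps1, Gls2, Asl, Nags and Otc, which no scaling can change.

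**Figure D1:**
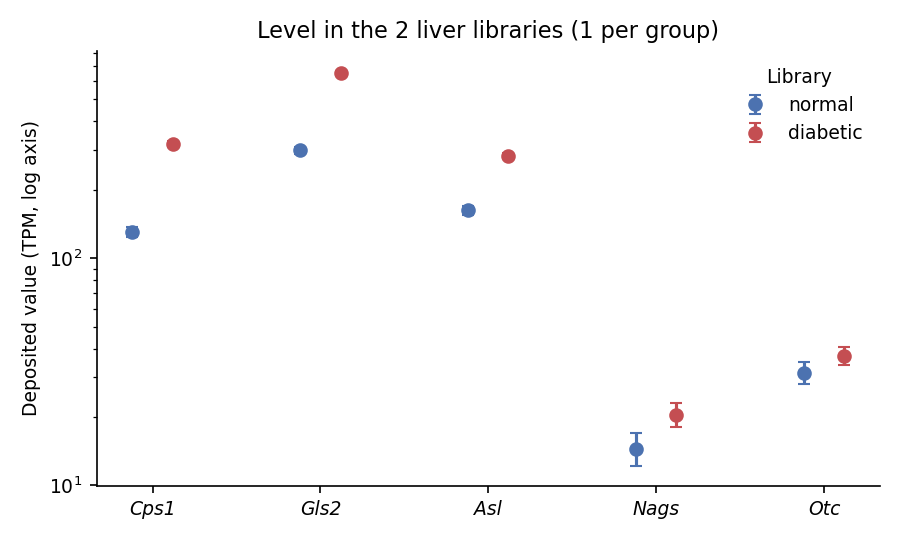
Level of each member in the 2 libraries, in TPM on a log axis, with exact 95% Poisson intervals that cover counting error only; blue points are the normal library and red points the diabetic library. The points of Cps1 (130 and 317 TPM), Gls2 and Asl are clearly apart, and those of Otc (31.1 and 37.1 TPM) are close.

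Gls2 is the liver-type glutaminase, which supplies ammonia to Cps1 inside the mitochondrion. It was at 299 TPM in the normal library (3071 reads, 95% interval 288 to 310 TPM) and at 656 TPM in the diabetic library (8865 reads, 643 to 670 TPM). The intervals of both libraries lay far apart. Its fold change was 2.20, a log2 ratio of 1.14 (95% interval, 1.08 to 1.19). Of all genes, 15.0% had a higher log2 ratio. Under TMM scaling the log2 ratio of Gls2 was 0.88, still past 1.5-fold.

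Cps1 catalyzes the first and rate-limiting step of the urea cycle. It was at 130 TPM in the normal library (1339 reads, 95% interval 123 to 137 TPM) and at 317 TPM in the diabetic library (4278 reads, 307 to 326 TPM). This was the highest fold change among the members, 2.43-fold, and the interval around its log2 ratio of 1.28 was 1.19 to 1.37. Of all genes, 11.8% had a higher log2 ratio, and under TMM scaling that of Cps1 was 1.03.

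Nags makes N-acetylglutamate, without which Cps1 is inactive. It was at 14.4 TPM in the normal library (148 reads, 95% interval 12.2 to 16.9 TPM) and at 20.4 TPM in the diabetic library (276 reads, 18.1 to 23.0 TPM). The 2 intervals did not overlap, but the fold change of 1.42 lay under 1.5 and the FDR of the exact test was 0.0015. The interval around its log2 ratio of 0.50 ran from 0.21 to 0.80, so that at this depth a change of more than 1.5-fold could not be told from a smaller one. Under TMM scaling the log2 ratio was 0.25 and the FDR of the exact test 0.14.

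Otc forms citrulline from ornithine and carbamoyl phosphate, the product of Cps1. It was at 31.1 TPM in the normal library (320 reads, 95% interval 27.8 to 34.7 TPM) and at 37.1 TPM in the diabetic library (501 reads, 33.9 to 40.5 TPM). The intervals overlapped, and Otc was not called, since its fold change was 1.19 and its exact-test FDR 0.029. Its log2 ratio was 0.25 (95% interval, 0.047 to 0.46), the same as the median of all genes. Under TMM scaling it was 0.00035, and under the other 3 scalings it was below 0, at -0.0067 to -0.053.

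Asl splits argininosuccinate into arginine and fumarate in the cytosol. It was at 162 TPM in the normal library (1669 reads, 95% interval 155 to 170 TPM) and at 282 TPM in the diabetic library (3805 reads, 273 to 291 TPM). The fold change of 1.73, a log2 ratio of 0.79 (95% interval, 0.71 to 0.88), met both criteria. None of the 4 scalings left Asl past 1.5-fold, its log2 ratio coming to 0.54 under TMM and 0.49 under median ratio, so the call of Asl depended on the scaling.

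**Figure D2:**
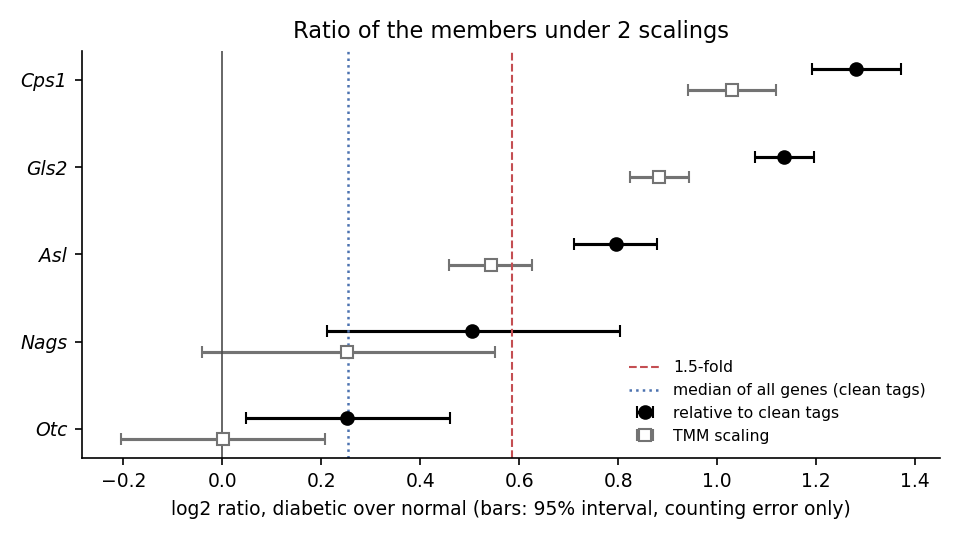
log2 ratio of each member, diabetic over normal, relative to clean tags (filled circles) and under TMM scaling (open squares), with 95% intervals that cover counting error only; the dashed line is 1.5-fold and the dotted line the median of all genes. Cps1 and Gls2 lie beyond the dashed line under both scalings, Asl under 1 of them, and Otc lies on the median of all genes.

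The members were next compared with each other inside each library, which removes the scaling between libraries altogether. For each of the 10 pairs, the reads of one gene over those of the other were compared between the libraries by Fisher's exact test (two-sided), with Benjamini-Hochberg adjustment over the 10 pairs. In 7 pairs the ratio differed between the libraries with an adjusted p under 0.001, and in 4 of these it differed at least 1.5-fold. These 4 pairs set Cps1 or Gls2 against Otc or Nags.

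Per Otc read, Cps1 reads numbered 4.18 in normal and 8.54 in diabetic liver, a 2.04-fold change of the ratio (95% interval, 1.74 to 2.38; Fisher's exact test, adjusted p = 4.8e-18). Gls2 reads per Otc read numbered 9.60 in normal and 17.7 in diabetic liver, a 1.84-fold change (95% interval, 1.59 to 2.14). Cps1 and Otc, which act one after the other, thus did not keep their ratio. Cps1 over Nags changed 1.71-fold (95% interval, 1.38 to 2.12), and Gls2 over Nags 1.55-fold (95% interval, 1.25 to 1.91).

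Asl lay between these genes. Cps1 over Asl changed 1.40-fold (95% interval, 1.29 to 1.53), Gls2 over Asl 1.27-fold (95% interval, 1.18 to 1.36) and Asl over Otc 1.46-fold (95% interval, 1.25 to 1.70), each with an adjusted p under 0.001 in the exact test. Of the 4 pairs of neighbours in the order, Gls2 over Asl thus had an adjusted p under 0.001, though it changed less than 1.5-fold, and the other 3 pairs met neither criterion. Cps1 over Gls2 went from 0.436 to 0.483, a 1.11-fold change with a 95% interval of 1.03 to 1.19 (Fisher's exact test, adjusted p = 0.0090). Asl over Nags changed 1.22-fold with a 95% interval of 0.986 to 1.51, and Nags over Otc 1.19-fold with a 95% interval of 0.927 to 1.53, so neither pair could be told apart beyond counting error.

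**Figure D3:**
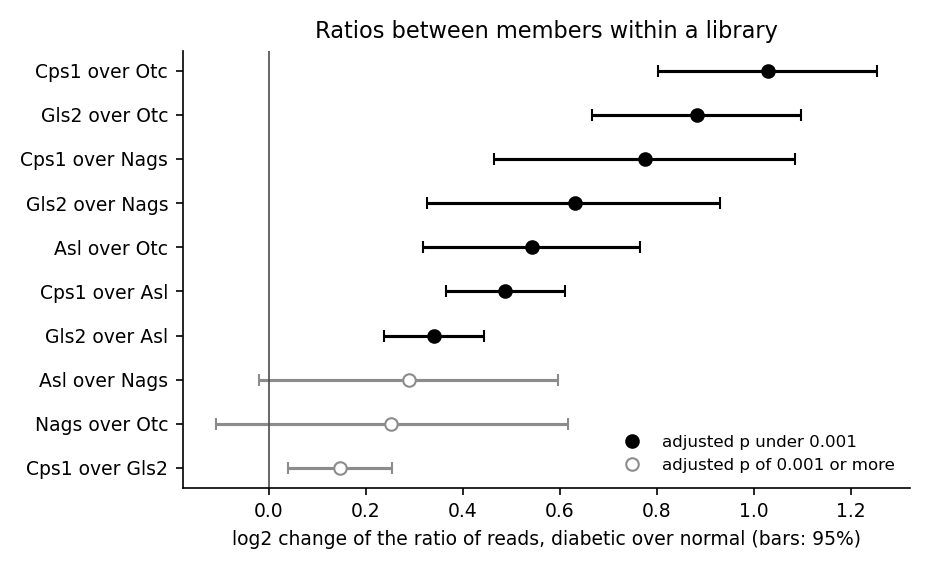
Change of the ratio of reads between 2 members, diabetic over normal library, on a log2 axis for the 10 pairs, with 95% intervals; filled points have an adjusted p under 0.001 in Fisher's exact test. The largest change is that of Cps1 over Otc (log2 1.03), and the 3 open points are Cps1 over Gls2, Asl over Nags and Nags over Otc.

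Genes around the urea cycle were then described as 7 lists, which together name 94 genes, of which 70 had a row. Of these, 29 were called higher and 2 lower (24 and 5 under TMM scaling). Over all genes, 22.9% were called higher and 8.19% lower (14.9% and 13.4% under TMM). The counts of each list below are to be read beside these shares, and no list was tested as a set. The median log2 ratio of the 70 genes was 0.50 beside 0.25 for all genes, and 0.25 beside 0.00067 under TMM.

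Carriers of the cycle connect its mitochondrial and cytosolic steps. Of 5 genes with a row, 2 were called higher and 0 lower. Slc25a13, the mitochondrial exchanger of aspartate and glutamate known as citrin, which exports the aspartate used to form argininosuccinate, rose 2.39-fold, from 36.9 to 88.2 TPM (log2 ratio 1.26, 95% interval 1.09 to 1.43). Slc7a2, a transporter of arginine and other cationic amino acids, rose 2.18-fold, from 55.6 to 121 TPM (log2 ratio 1.12, 95% interval 0.98 to 1.26). Aqp9, a channel for glycerol and urea, was at 100.2 and 146 TPM, 1.46-fold and not called. The ornithine carrier Slc25a15, added for its role after its values were seen, was at 66.9 and 93.6 TPM, with a log2 ratio of 0.48 and no call, between Otc and Nags.

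Carbonic anhydrases form bicarbonate, which Cps1 uses inside mitochondria. Of 6 with a row, 4 were called higher (3 under TMM, without Car1) and 0 lower. Only Car5a and Car5b among them are mitochondrial, and Car5b was not called. Car5a, the mitochondrial form of hepatocytes, rose from 25.7 to 76.8 TPM (264 and 1037 reads), a log2 ratio of 1.58 (95% interval, 1.38 to 1.78). Car3, a cytosolic form of low activity, rose 2.95-fold from 55.7 to 164 TPM. Car14, a membrane-bound form, was counted 6 and 64 times, so that its log2 ratio of 3.03 was imprecise (1.82 to 4.52).

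Transporters of ammonium, glutamine and glutamate had 2 of 7 called higher and 0 lower. Rhbg, the ammonium transporter of central-vein hepatocytes, rose from 6.03 to 17.5 TPM (62 and 237 reads), a log2 ratio of 1.54 (95% interval, 1.13 to 1.97). Slc25a22, which carries glutamate into mitochondria, rose from 38.2 to 71.3 TPM. Slc38a3, the main glutamine transporter of hepatocytes, was at 326 and 460 TPM, 1.41-fold and not called.

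Enzymes that exchange aspartate, fumarate and amino groups with the cycle had 6 of 8 called higher and 0 lower, also under TMM scaling, with a median log2 ratio of 1.14. The alanine aminotransferases rose most. Gpt2, the mitochondrial form, rose 4.63-fold from 57.8 to 268 TPM, and Gpt, the cytosolic form, 2.91-fold from 81.7 to 238 TPM. Got2, the mitochondrial aspartate aminotransferase, rose 2.40-fold from 434 to 1042 TPM. Mdh2, mitochondrial malate dehydrogenase, rose 2.61-fold from 74.7 to 195 TPM.

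Ornithine, proline and arginine metabolism had 5 of 16 called higher and 1 lower. Oat, ornithine aminotransferase, which converts ornithine to glutamate semialdehyde, rose from 338 to 1785 TPM (3470 and 24111 reads), 5.29-fold, with a log2 ratio of 2.40 (2.35 to 2.45). Prodh, proline dehydrogenase, rose from 87.3 to 286 TPM, and Prodh2, hydroxyproline dehydrogenase, from 32.3 to 60.6 TPM.

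Other enzymes that release ammonia, or lead to its release, had 7 of 14 called higher and 0 lower. Cth, cystathionine gamma-lyase, rose 6.14-fold from 99.8 to 613 TPM. Sds, serine dehydratase, which forms pyruvate and ammonia from serine, rose 5.58-fold from 81.0 to 451 TPM. Gda, guanine deaminase, rose from 11 to 132 reads, a log2 ratio of 3.19 (95% interval, 2.30 to 4.23). Cbs, which forms cystathionine upstream of Cth, was at 536 and 359 TPM, a log2 ratio of -0.58 just inside 1.5-fold, and under TMM scaling, at -0.83, it was called lower.

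**Figure D4:**
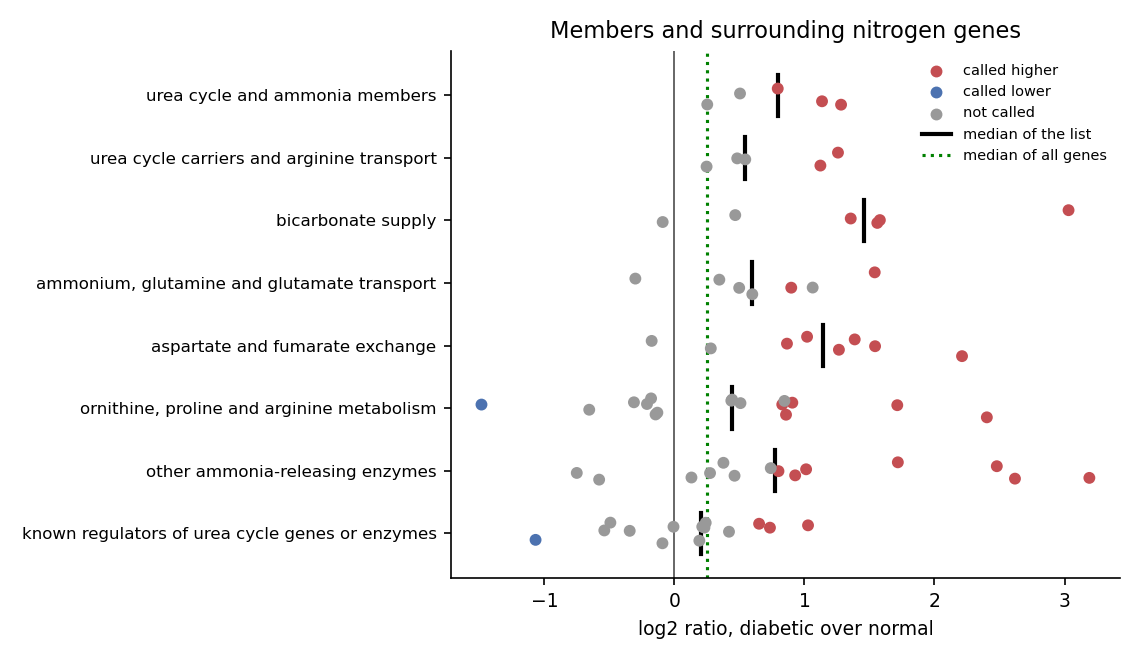
log2 ratio, diabetic over normal, of the 5 members and of the genes of the 7 surrounding lists; red points are genes called higher, blue points called lower and grey points not called, black bars are list medians and the dotted line is the median of all genes. The highest list medians are those of bicarbonate supply (1.46) and of aspartate and fumarate exchange (1.14), and the regulators (0.20) lie near the median of all genes.

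Known regulators of urea cycle genes or enzymes had 3 of 14 called higher and 1 lower, beside 22.9% and 8.19% of all genes. Their median log2 ratio was 0.20. Under TMM scaling the counts turned to 1 higher and 3 lower, beside 14.9% and 13.4% of all genes, with a median of -0.049. Hnf4a, a hepatocyte transcription factor on which urea cycle gene expression is known to depend, fell 2.10-fold from 96.8 to 46.2 TPM (995 and 624 reads; log2 ratio -1.07, -1.21 to -0.92). Klf15, a transcription factor of amino acid catabolism, rose 2.04-fold from 38.8 to 79.1 TPM (log2 ratio 1.03). Sirt3, a mitochondrial deacetylase, rose 1.66-fold and Cebpb, a transcription factor induced in fasting, rose 1.57-fold. Neither Sirt3 nor Cebpb was called under TMM scaling, with log2 ratios of 0.48 and 0.40. Sirt5, a mitochondrial deacylase that acts on Cps1, and Sp1, a general transcription factor, were not called relative to clean tags (log2 ratios of -0.54 and -0.49) but were called lower under TMM, at -0.79 and -0.74.

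Since urea synthesis is a portal-side function, markers of both zones of the liver lobule were examined. Of 15 portal-side markers with a row, 4 were called higher and 4 lower, also under TMM, with a median log2 ratio of 0.20 (-0.056 under TMM). Fbp1 and Pck1, enzymes of gluconeogenesis, rose 3.09-fold and 3.07-fold. Cdh1, E-cadherin, fell 25.1-fold (248 and 13 reads), Sult5a1, a sulfotransferase, 4.60-fold (112 and 32 reads), and Ctsc, cathepsin C, 2.84-fold. Of 16 central-vein markers with a row, 5 were called higher and 2 lower, with a median of 0.32. Under TMM these were 4 higher and 3 lower, with a median of 0.072, since Lect2 was no longer called and Cyp1a2 was called lower at -0.73. Aldh1a1, a retinal dehydrogenase, rose 6.65-fold and Cyp7a1, of bile acid synthesis, 4.47-fold. Cyp27a1, also of bile acid synthesis, fell 1.97-fold and Gulo, of vitamin C synthesis, 1.88-fold. Cyp2e1, the central-vein marker of highest mean, had a log2 ratio of 0.25 and was not called. Sds and Hal belong both here and to the ammonia-releasing list, and Oat, Rhbg and Slc1a2 to another list as well. Both zones held markers called higher and markers called lower, as did all genes (22.9% and 8.19%, and 14.9% and 13.4% under TMM). The part of zonation in the values of the members was not tested.

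All 9 hepatocyte markers had a row, and their summed level was 35308 TPM in the normal and 25061 TPM in the diabetic library. Their median log2 ratio was 0.013 beside 0.25 for all genes, and -0.24 beside 0.00067 under TMM. Without Apoa1, a check added after its values were seen, the other 8 summed to 20640.1 and 22186 TPM. Apoa1, the main protein of high density lipoprotein, fell 5.10-fold and Apoh, a plasma glycoprotein, rose 1.59-fold (not called under TMM), and the other 7 were not called. Markers of other liver cells are described next. The counts of all these marker lists are to be read beside the shares of all genes, 22.9% called higher and 8.19% lower (14.9% and 13.4% under TMM). Of the 11 symbols of Kupffer cell and macrophage markers, which include Emr1 also under its other symbol Adgre1, 8 had a row. Of these 8, 1 was called higher (C1qb, not under TMM) and 4 lower, and their sum was 327 and 194 TPM. Without C1qa, left out in the same way, the other 7 summed to 150.03 and 143 TPM. The largest of these 7 were Cd5l (64.7 and 62.9 TPM, not called) and C1qb (38.1 and 57.8 TPM). The median log2 ratio of the 8 markers was -0.71 (-0.97 under TMM). C1qa and C1qc, parts of complement C1q, fell 3.48-fold and 3.49-fold, and Csf1r, the receptor of macrophage growth factor, 2.14-fold. The sums were 131 and 119 TPM for 8 of 8 sinusoidal endothelial markers (Kdr called higher and Clec4g lower), 117 and 159 TPM for 7 of 8 stellate cell markers (Col1a1 higher and Reln lower), and 61.5 and 107 TPM for 3 of 6 cholangiocyte markers (Spp1 higher). Without Spp1, left out in the same way, the other 2 cholangiocyte markers summed to 4.28 and 4.22 TPM. Alas2, the 1 of 6 erythroid markers with a row, was at 51.9 and 44.2 TPM. None of the markers with a row was at 0 in either library. In whole liver, fewer cells of a type and less RNA per cell cannot be told apart, and the part of cell composition in the values of the members was not tested.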

How the data were processed

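Liver poly(A) RNA was profiled by DpnII tags, 1 library per group. The authors removed adaptors and compared clean tags with RefSeq (build mm9 per the labels, aligner not given in the sources used here). They deposited values called TPM, which are RPM values relative to clean tags, with 0.01 for no tag. Genes with a mean under 1 were left out. The authors also reported tags matching a unique gene apart from tags matching several genes. The lack of a row for Ass1, Arg1, Glul and Glud1 therefore does not by itself show a low level. Above 0.01, 8513 of 8513 values of the normal and 8536 of 8537 of the diabetic library were whole reads within rounding (0.005 TPM), so the reads were computed from them. The median listed gene had 71 and 111 reads. Of columns of other samples, 0 were present.

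Reads of each gene were tested by the exact binomial test (two-sided), with clean tags as totals. FDR values are Benjamini-Hochberg, over all 8551 genes. Intervals are Clopper-Pearson for ratios, Poisson for levels and conditional exact for pairs, at 95%. Intervals cover the counting error of reads only, and tags carried no molecular identifiers. With 1 library per group, p-values carry no variation between mice. Members and lists were chosen with earlier results of these data known. The text names each member and, of each other list, the gene of highest mean and up to 3 called genes with the largest log2 ratio in each direction, but not every gene so chosen is reported here. Alternatives were 4 scalings, a 2-fold threshold, the Audic-Claverie test, a filter at a mean of 5 TPM, and pseudocounts (0.1 and 1 TPM). TMM trimmed 30% of log ratios and 5% of abundances at each end, upper quartile used the 75th percentile, and median ratio was taken where the mean reached 10 TPM. Tags were predicted from GENCODE M21 transcripts (GRCm38). The computation was tested on simulated reads. The software was scipy 1.17.1, numpy 2.4.6, matplotlib 3.10.9 and pandas 2.3.3 under Python 3.11.15.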

Additional observations from a re-analysis of the deposited data

How the results depend on the processing

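The scaling between the libraries was the choice that mattered most. The median log2 ratio of the members, 0.79 relative to clean tags, was 0.54 when scaled to the summed listed genes, 0.54 under TMM, 0.53 under upper quartile and 0.49 under median ratio. Under each of these 4 scalings 2 members (Cps1 and Gls2) were called higher in place of 3, since Asl came under 1.5-fold, and 0 were called lower. The log2 ratio of Otc, which was called under no setting, turned to -0.0067 scaled to the sum, -0.014 under upper quartile and -0.053 under median ratio. With a 2-fold threshold 2 members were called higher. The number stayed at 3 with the Audic-Claverie test and with a minimum mean of 5 TPM, and the pseudocounts of 0.1 and 1 TPM left 3 members at least 1.5-fold higher. Over all genes, 1955 were called higher and 700 lower relative to clean tags, against 1135 to 1272 higher and 1147 to 1262 lower under the 4 scalings. The ratios between members do not depend on the scaling. No paired analysis was possible because each group has 1 library. Without replicates, no variation between mice could be estimated, and counting error alone sets the intervals.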

Other observations

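Several enzymes and carriers of nitrogen handling come as a pair of related genes, one typical of hepatocyte mitochondria and one with a wider or cytosolic distribution. The pairs below were picked after their values were seen, and the difference within a pair was not tested. Of the malate dehydrogenases, mitochondrial Mdh2 rose 2.61-fold, and cytosolic Mdh1 was at 8.17 and 9.92 TPM, with a log2 ratio of 0.28. Of the exchangers of aspartate and glutamate, Slc25a13 rose 2.39-fold, and Slc25a12 was at 8.17 and 9.70 TPM, with a log2 ratio of 0.25. Of the mitochondrial carbonic anhydrases, Car5a rose 2.99-fold, and Car5b had 22 and 40 reads, a log2 ratio of 0.47 with an interval too wide, at this depth, to tell it from no change. In both pairs of aminotransferases the cytosolic form rose too. Got1 rose 1.82-fold from 105 to 191 TPM, beside 2.40-fold for mitochondrial Got2, and Gpt rose 2.91-fold beside 4.63-fold for mitochondrial Gpt2.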
